A study of Rattus norvegicus with 6 samples.

Results

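The hairpins described here are 369 predicted microRNA precursors whose reads mostly matched them without a change. They were chosen by their exact share: among the hairpins whose deposited names mark them as predicted, those with 50% or more of the counts, pooled over 6 libraries, in rows that list no mismatch or added base. Hairpins with the same sequence were taken as 1, so the 369 stand for 392 names, among 512 predicted hairpin sequences and 776 hairpin sequences in all. The exact share is therefore given only as a description. Each is called by the chromosome and number in its name, such as chr7_33634. The libraries were made from RSC96, an immortalised line of rat Schwann cells kept for 48 h in high glucose (3 libraries) or in low glucose, the control (3 libraries). The labels give the tissue as nerve, no glucose concentration, no passage and nothing on whether replicates were separate cultures. A p-value here thus speaks only of how these libraries vary, a variation that could be technical. The extraction text speaks of retinas and the series title of exosomes, and neither the labels nor the files say whether vesicles or whole cells were sequenced.

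A microRNA is cut from a hairpin-shaped transcript. Drosha frees the hairpin and Dicer removes its loop, which leaves short RNAs with well defined 5′ ends from 1 or both arms, and bases 2 to 8 of the mature strand, the seed, pair with target messages. Prediction programs look for genomic sequence that could fold in this way and carries stacked small RNA reads, so fragments of transfer RNAs, of repeats and of other transcripts can also be proposed. In Schwann cells, the glia of peripheral nerves, microRNAs are known to act in myelination and in the response to nerve injury.

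The sequences that carried most of the results fell into a few kinds, and in each the main sequence is the one with the most counts in its hairpin. The first 2 are main sequences with the trinucleotide CCA, which mature transfer RNAs carry at their 3′ end, in capitals. The third is a whole hairpin whose letters read as a glutamine transfer RNA gene, although no transfer RNA annotation was used, with the match to GTTCNANNC, a pattern of the T arm of transfer RNAs, in capitals.
chr7_33634: atctcggtggaacctCCA
chr1_2597: tctcgctggggcctCCA
chr2_21956: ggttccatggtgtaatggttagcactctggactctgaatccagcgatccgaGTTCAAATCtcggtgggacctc

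A second kind shared 15 bases, in capitals, with each other and with the annotated miR-3473. The main sequence of chr11_9153 is bases 4 to 20 of that mature RNA. RefSeq mature sequences here and below are from build GRCr8 and are written with U.
chr8_36384: ggGGCTGGAGAGATGGC
chr11_9153: agGGCTGGAGAGATGGC
rno-miR-3473: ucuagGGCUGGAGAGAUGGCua

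Another kind was rich in G and T. The main sequence of chr15_14759 is also that of chr4_28700, and its first 17 bases are those of miR-466c-5p. The seeds are in capitals.
chr15_14759: tGTGATGTgtgtatgtatatgt
rno-miR-466c-5p: uGUGAUGUguguauguacaug
chr17_16957: tTGTCTGTgtgtatgtccatgt

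The main sequence of chr4_26649 lies on the strand opposite to miR-182. Capitals mark the bases that are complementary when the sequences are laid head to tail, bases 1 to 19 of the microRNA.
chr4_26649: GAGTTCTACCATTGCCAAA
rno-miR-182: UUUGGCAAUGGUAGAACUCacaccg

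Among the hairpins that repeat annotated microRNAs, the main sequence of chr14_12992 is the whole of miR-365-3p and those of chr3_23825 and chr10_5922 lack only the last base of miR-199a-3p and miR-378a-3p. Capitals mark the seeds.
chr14_12992: tAATGCCCctaaaaatccttat
chr3_23825: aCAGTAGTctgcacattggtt
chr10_5922: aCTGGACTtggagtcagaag

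The last set holds hairpins listed in 1 glucose group only, the first 4 in high and the last in low glucose, again with bases 2 to 8 in capitals.
chr6_32992: tTCGGTTTtcgtctcctgggctt
chr16_15166: aACGCGGActccggcagctt
chr4_27986: tCTGCTGCtctgtcctctcctt
chr3_25389: tCAGTGGTagagcgcttgcc
chr8_36766: tGAGATCCggactggactca

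The members were short hairpins. Their length ran from 38 to 91 nt with a median of 59 nt, against 60 nt for the 143 predicted hairpins with mostly mismatched reads and 86 nt for the 264 annotated hairpins. Their median GC content was 53.7%, against 56.4% and 50% in those classes. The minimum free energy computed with RNAfold had a median of -23.3 kcal/mol in the members, -24.9 in the mostly mismatched and -38.2 in the annotated hairpins. Per nucleotide the medians were -0.39, -0.41 and -0.44 kcal/mol, so the gap to the annotated class was smaller once length was taken out. A single loop formed in 360 of the 369 members. These are descriptions of hairpin sequences, which are not replicates, and no test was made on them.

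**Figure D1:**
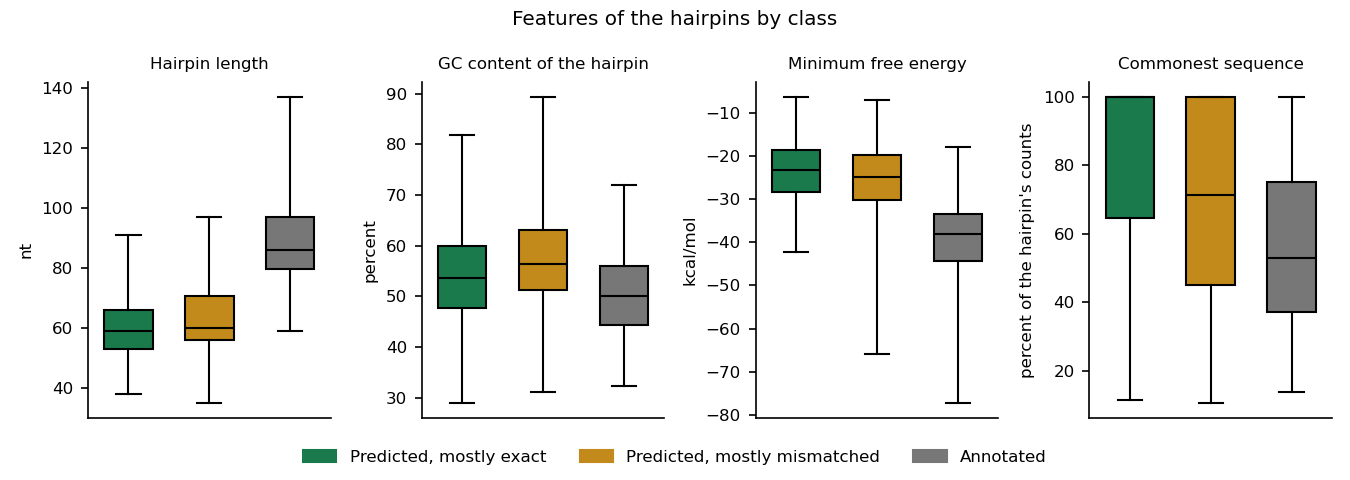
Hairpin length in nt, GC content in percent, minimum free energy in kcal/mol and the percent of a hairpin's counts held by its commonest sequence, for 369 predicted hairpins with mostly exact reads, 143 with mostly mismatched reads and 264 annotated hairpins. Lines inside boxes are medians, boxes span the quartiles and whiskers reach the lowest and highest hairpin. The median lengths are 59, 60 and 86 nt, and the median share of the commonest sequence is 100%, 71.4% and 53.0%.

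The main sequence lay on the 5p side in 192 members and on the 3p side in 177, the side being given by the middle of the hairpin. Counts on both arms, which a cut hairpin can leave, were listed in 36 members (9.76%), in 22 mostly mismatched hairpins (15.4%) and in 131 annotated hairpins (49.6%). The main sequence was 20 to 24 nt long, the usual size of a microRNA, in 276 members, shorter in 84 and longer in 9. It began with T in 162 members (43.9%), against 47.7% of the annotated hairpins. In 188 members the main sequence started at the first base of the hairpin and in 170 it reached the last, so that 358 of 369 had it at an edge, against 128 of 143 mostly mismatched and 3 of 264 annotated hairpins. In most members, then, the listed hairpin ends with the main sequence, and a read that ran past that end would show as an added base or not be listed.

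Most members rested on little evidence. Pooled counts ran from 2 to 7877 with a median of 15, against a median of 20 in the mostly mismatched and 288 in the annotated hairpins. In 224 members all counts came from 1 sequence. A hairpin with 1 sequence can only have 0% or 100% exact counts, and 252 members were at 100%. The 10 members with the most counts held 58.0% of the 44474 counts of all members, which were 1.12% of all counts and 19.4% of those of predicted hairpins. Near the threshold and with at least 50 counts, chr8_36384 (50.2%), chr7_34207 (51.9%) and chr1_1157 (52.0%) were just inside, and chr2_20641 (48.5%), chr14_12654 (46.1%) and chr17_16951 (45.2%) just outside.

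The 5′ ends of the members' sequences were less uniform than those of annotated hairpins. Among hairpins with at least 50 counts, the commonest 5′ end held a median of 64.4% of the counts in 62 members, 63.8% in 53 mostly mismatched and 94.2% in 191 annotated hairpins. For the commonest 3′ end the medians were 61.5%, 53.4% and 55.9%. In 25 of the 62 members the 3′ end was the more uniform one, against 17 of the 53 mostly mismatched and 19 of the 191 annotated hairpins. In chr4_26649, opposite miR-182, 84.8% of the counts shared a 3′ end and 35.2% a 5′ end, and in chr2_21670 these shares were 74.3% and 31.7%. By contrast, 98.6% of the counts of chr17_16957 and 92.5% of those of chr15_14759 shared a 5′ end, and 94.3% in chr16_15166. In each of these named hairpins the main sequence reached the edge of the listed hairpin at its more uniform end. A read that ran past that edge would show as an added base or not be listed. How far this set the shares was not tested.

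Shared sequences were concentrated in a minority of members. Of the 369, 50 had all their counts in sequences listed under several hairpins, 72 had over 50% there and 287 had none. The deposited status letter R covered all counts in 72 members, over 50% in 95 and none in 266. R marked all sequences listed under several hairpins, but 21 members carried R on sequences listed under no second hairpin, among them chr4_26649 and chr4_27986 with all of their counts. The files do not explain the letter. When hairpins that shared over 50% of their counts were joined, the members fell into 327 units, of which 35 held several hairpins.

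The largest of these units held 24 members on 13 chromosomes, those whose main sequence contains the 15 bases GGCTGGAGAGATGGC. It also took in 1 annotated and 1 mostly mismatched hairpin. A sequence of 16 bases ending in these letters was listed under all 24 members and mir-3473 at once. Either strand of the 15 bases occurs in 96 of 33469 windows of 300 bases around rat gene starts in RefSeq (0.287%). The main sequences of 22 members (5.96%) were found in over 20 of these windows, against 1 mostly mismatched and 1 annotated hairpin. Sequence copied this often is usually part of a repeat, but no repeat annotation was used here, and a shared read cannot be placed on 1 of the copies. The 24 held 25.1% of all member counts.

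A few members coincided with known microRNA loci. The main sequence lay within a RefSeq mature RNA, or held it, in 12 members, within a RefSeq hairpin in 12 and opposite one in 6, and 41 shared a seed with a RefSeq mature RNA, among 585 distinct seeds searched. Besides the miR-365, miR-199a and miR-378a copies, chr4_28515 held miR-200c-3p, chr3_25507 miR-130a-3p and chr11_8616 matched Mir1306. All counts of these last 3 were shared with another hairpin. In chr14_12992 the other arm was listed too, with 15 counts from base 1, against 122 in the whole hairpin. The hairpin chr15_14496, chosen after its values were seen, begins with 15 bases, in capitals, that are bases 2 to 16 of miR-16-5p, while its counts fell on the other arm, whose main sequence runs from base 42 to 63.
chr15_14496: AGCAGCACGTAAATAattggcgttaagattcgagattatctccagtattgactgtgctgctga
rno-miR-16-5p: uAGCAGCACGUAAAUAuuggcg

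The libraries differed in depth in step with the glucose groups, at 963706 to 1354456 counts in high and 114615 to 148143 in low glucose, a 9.31-fold difference of the means. Fewer cells, less RNA per cell and less of a given RNA cannot be told apart in such libraries. Erythroid microRNAs (miR-451, miR-144, miR-486 and miR-16, all 4 listed in every library) summed to 908 to 1027 CPM (counts-per-million, scaled by the TMM method of edgeR) in high glucose and to 3868 to 6703 in low glucose. Retinal microRNAs summed to 38.6 to 65.5 and to 69.1 to 135, with miR-96 and miR-124 at 0 throughout. Of the retinal list only miR-183 separated the groups, at 14.1 to 21.7 CPM in high and 37.4 to 90.2 in low glucose. For miR-182 and miR-204 the groups overlapped. The erythroid and retinal sums moved with the glucose groups, as did depth, and their part in the results that follow was not tested. No microRNA list that defines Schwann cells was used.

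Most members were seen in high glucose alone. The high glucose libraries listed 149, 203 and 210 members and the low glucose libraries 50, 50 and 51. When every library was thinned to 114497 reads and sequences with 1 read were dropped again, the high glucose libraries listed 76.8, 90.4 and 83.1 members on average over 20 draws and the low glucose libraries 48.2, 44.2 and 51. The groups did not overlap in either case. No test is given for this count, because a hairpin entered the set by being listed in any library, which tilts the set towards the deeper high glucose libraries, and thinning a set already chosen does not remove that. A single library listed 243 members, with pooled counts of 2 to 43. The high glucose libraries held 50, 94 and 97 of these and the low glucose libraries 1, 1 and 0. All 6 libraries listed 37 of the 369 members, against 148 of the 264 annotated hairpins.

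**Figure D2:**
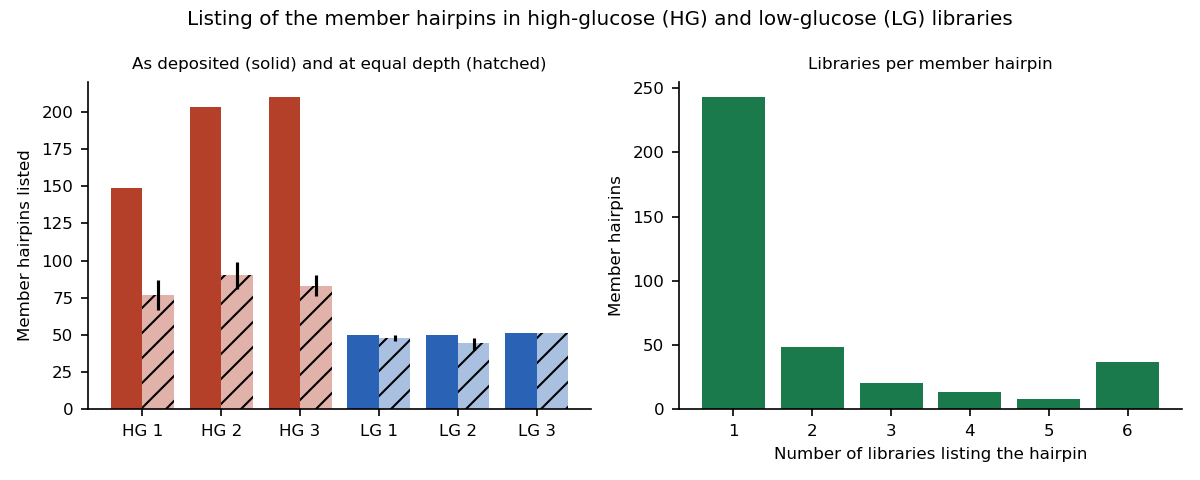
Left, the number of member hairpins listed in each high-glucose (HG) and low-glucose (LG) library as deposited (solid bars) and after thinning to equal depth (hatched bars, means of 20 draws with lines from the lowest to the highest draw). Right, the number of members by how many libraries listed them. High glucose libraries list 149 to 210 members as deposited and low glucose libraries 50 or 51, and 243 members are listed in 1 library.

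As a share of all counts, the members took 1.25%, 1.28% and 0.978% of the high glucose libraries and 0.690%, 0.748% and 0.763% of the low glucose libraries. The means were 1.17% ± 0.166 and 0.734% ± 0.0385 (SD, n = 3 each), and the groups did not overlap (exact two-sided permutation p = 0.1, the smallest that 3 against 3 libraries can give). The members' share is open to the same tilt. For the 301 members at 80% or more exact counts the difference between the means was 0.127 percentage points, against 0.435 for all. The mostly mismatched predicted hairpins went the other way, with 4.23% ± 1.56 and 9.92% ± 1.70 (SD, n = 3), again without overlap. Their counts were 52732, 60570 and 33500 in high and 11541, 12732 and 13568 in low glucose. The mostly mismatched chr7_34122, joined with the 74 counts of member chr9_39220, had 11668, 14430 and 9040 in high and 9522, 10637 and 11023 in low glucose. In low glucose the class was thus largely 1 hairpin, and its direction without this hairpin was not tested.

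The make-up of the member counts also differed between the groups. Sequences of 20 to 24 nt made up 40.4%, 42.4% and 49.8% of them in high glucose and 72.7%, 75.4% and 60.7% in low glucose, without overlap. Sequences listed under several hairpins made up 37.8%, 37.3% and 39.5% in high glucose and 61.6%, 64.9% and 53.7% in low glucose. The status letter R covered 44.8% ± 2.06 and 61.6% ± 4.33 (SD, n = 3 each), and the 5p side 65.5% ± 1.53 and 68.7% ± 0.805. Each of these had an exact permutation p of 0.1, again the smallest possible, and none was past 0.05. The annotated hairpins also separated the groups, with 94.2% ± 0.757 against 98.2% ± 0.0911 in 20 to 24 nt and, in the opposite direction to the members, 21.3% ± 1.5 against 9.44% ± 0.369 under several hairpins (SD, n = 3).

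A handful of hairpins set these shares. The 3 GT-rich hairpins chr15_14759, chr4_28700 and chr17_16957, with main sequences of 22 nt that start with T, held 23.0%, 16.4% and 23.7% of the member counts in high glucose and 63.8%, 70.1% and 51.4% in low glucose. Without them, chosen after their values were seen, the share of 20 to 24 nt turned round, to 23.4%, 31.5% and 34.6% in high glucose against 24.6%, 18.1% and 19.1% in low glucose, and the groups overlapped (exact permutation p = 0.2). The share under several hairpins then differed less, at 35.8% ± 0.994 against 47.9% ± 6.61 (SD, n = 3). The members' share of all counts stood further apart without them, at 0.926% ± 0.165 and 0.281% ± 0.0786 (SD, n = 3). Sequences ending in CCA, of which chr7_33634 held 86.7% and chr1_2597 10.9%, made up 18.8% ± 3.93 of the member counts in high and 5.48% ± 1.91 in low glucose.

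Set against the annotated hairpins of the same library, the members had fewer counts of 20 to 24 nt in 6 of 6 libraries (56.9% ± 15.1 against 96.2% ± 2.24, SD, n = 6), and more under several hairpins in 6 of 6 (49.1% ± 12.5 against 15.4% ± 6.59). Against the mostly mismatched hairpins they had more of both in 6 of 6 libraries, at 23.2% ± 4.27 and 1.74% ± 1.32 in those hairpins. Each of 8 such comparisons, which also took in CCA ends and first bases, had an exact two-sided sign-flip permutation p of 0.03125, the smallest that 6 libraries can give, and 0.03125 after Benjamini-Hochberg adjustment over the 8. The shares weigh hairpins by their counts, and a few hairpins dominate. The top 10 members held 58.0% of the member counts, and the largest mostly mismatched hairpin had 75904 counts against a median of 20. These p-values thus speak of pooled counts in these libraries, not of the hairpins as a class. Without the 3 GT-rich hairpins the members' share of 20 to 24 nt was 18.1% and 19.1% in low glucose libraries 2 and 3. The mostly mismatched hairpins were higher there, at 23.8% and 26.0%, and lower in the other libraries. The comparison of 20 to 24 nt with that class thus rested in part on these hairpins.

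**Figure D3:**
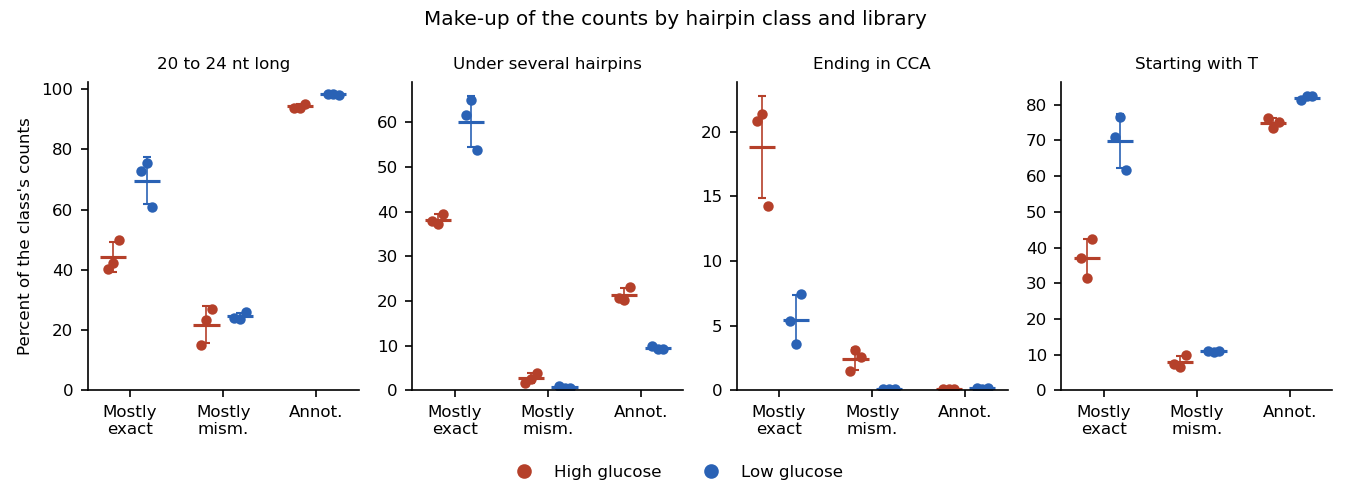
Percent of each class's counts in sequences of 20 to 24 nt, in sequences listed under several hairpins, in sequences ending in CCA and in sequences starting with T, for predicted hairpins with mostly exact reads, predicted hairpins with mostly mismatched (mism.) reads and annotated (annot.) hairpins. Points are libraries, horizontal lines are means and bars are 1 SD (n = 3). All 4 shares separate the high from the low glucose libraries in the mostly exact and in the annotated class, and 3 of the 4 do in the mostly mismatched class.

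Levels were compared hairpin by hairpin with edgeR's quasi-likelihood test over all 776 hairpins, of which 272 had enough counts to be tested, and p-values were adjusted over these 272 by the Benjamini-Hochberg method. The filter on low counts passed 52 of the 369 members, which held 87.9% of the member counts. Of the 317 not tested, 300 were listed in high glucose only, 2 in low glucose only and 15 in both. Of the 52 tested, 27 were called higher in high glucose, 4 lower and 21 neither, at an adjusted p of 0.05. Of all 272 tested hairpins, 36.4% were called higher and 26.1% lower. The groups did not overlap in 32 members that were higher and 5 that were lower, against 43.4% and 29.4% of all tested hairpins. The median log2 fold change was 1.24 over the tested members, -0.05 over the tested annotated hairpins and 0.39 over all. A member listed mainly in the deeper group could pass the filter only by being high there, and 4 of the 27 higher members were at 0 in all low glucose libraries, so these counts and medians do not stand for all 369.

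**Figure D4:**
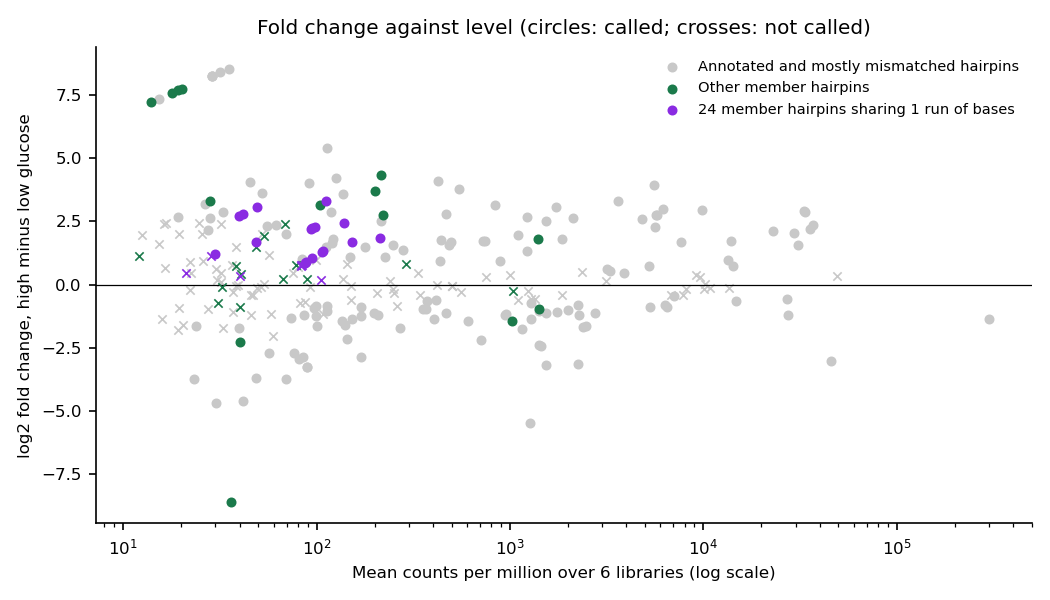
log2 fold change of high over low glucose from edgeR against the mean CPM over 6 libraries (log scale) for the 272 tested hairpins. Purple marks the 24 members that share 1 run of 15 bases, green the other 28 tested members and grey the hairpins of the other classes. Circles were called at an adjusted p of 0.05 and crosses were not. Of the purple hairpins 17 are called higher and none lower, and 4 of the green ones are called lower.

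The calls were not independent of each other. All 24 members with the 15 bases were tested, and 17 were called higher, 0 lower and 7 neither, against 36.4% higher among all tested hairpins, with log2 fold changes from 0.19 to 3.29 and a median of 1.30. At an unadjusted p of 0.05 in edgeR, and in DESeq2, 0 of them were lower, and DESeq2 called 12 higher. Of all 776 hairpins DESeq2 called 11.9% higher and 7.47% lower. With rows without a mismatch only, edgeR called 11 of the 24 higher, against 36.0% of all hairpins tested in that setting. The other 28 tested members gave 10 higher, 4 lower and 14 neither, with a median of 0.95. In low glucose 8 of the 24 had the same counts, 7, 9 and 8, because the same shared sequences were listed under each. Joined into 1 unit, the copies had 3180, 4729 and 3876 counts in high glucose and 129, 174 and 148 in low glucose, at a log2 fold change of 1.77 ± 0.18 (SE) and an adjusted p of 1.06e-05 in edgeR. All members joined in this way gave 31 tested units, with 14 higher and 4 lower, against 38.6% and 23.3% of all 210 units tested. Of these, 9 higher and 2 lower units held members only, while 4 higher units and 1 lower unit held an annotated hairpin, so that part of these calls rests on annotated counts.

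Within that family, chr8_36384, the member closest to the threshold for exact reads, had 368, 285 and 347 CPM in high glucose and 67.4, 89.8 and 126 in low glucose. Every high glucose library was above every low one, and the log2 fold change was 1.83 ± 0.28 (SE; adjusted p = 0.00112 in edgeR). It was 0.94 with rows without a mismatch only and 1.15 at equal depth, called in both. The miR-3473 copy chr11_9153 had 253, 209 and 234 CPM against 74.9, 62.2 and 81.2, also without overlap, at a log2 fold change of 1.68 ± 0.25 (SE; adjusted p = 0.000953 in edgeR). For chr3_25391, with the same main sequence, the values were 263, 212 and 227 CPM against 30.0, 62.2 and 36.1 and the log2 fold change 2.42 ± 0.32 (SE; adjusted p = 0.0006 in edgeR). Their shared sequences make up 61.0%, 93.4% and 98.8% of their counts, so these values rest largely on the same reads. With only the sequences listed under no second hairpin, the log2 fold change of chr11_9153 was -1.12 (edgeR adjusted p = 0.462). That of chr8_36384 was 2.31 (edgeR adjusted p = 0.0077). In this setting 5 of the family were tested, with 3 called higher and 0 lower, against 36.9% and 22.3% of all tested hairpins.

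Of the members with transfer RNA letters, chr7_33634 had the most counts of all members, at 2338, 3395 and 1913 in high glucose and 59, 50 and 122 in low glucose. In CPM these were 2430, 2511 and 1537 against 442, 345 and 1101. The groups did not overlap, the third low glucose library being the highest of its group and the third high glucose library the lowest of its own, and the log2 fold change was 1.80 ± 0.44 (SE; adjusted p = 0.00919 in edgeR). Without the third low glucose library it was 2.54. The hairpin is 77 nt long, its main sequence of 18 nt occupies bases 1 to 18, and the hairpin itself holds the CCA. The 24 sequences of chr1_2597, with the same kind of end, had 530, 423 and 276 CPM in high glucose and 0, 41.4 and 18 in low glucose. The gap between the groups was wide, at a log2 fold change of 4.31 ± 0.63 (SE; adjusted p = 0.000953 in edgeR), and its low glucose counts were 0, 6 and 2. With such counts chr1_2597 passed the filter through the high glucose group alone, so its p-value is not support for a rise. Without the second low glucose library the log2 fold change was 5.75, so 1 library moves the size of this rise. The whole transfer-RNA-like hairpin chr2_21956 had 384, 547 and 166 CPM against 150, 159 and 334, so its groups overlapped and it was not called (log2 fold change 0.79 ± 0.50, SE; edgeR adjusted p = 0.200). Without the third high glucose library its log2 fold change was 1.26 and its edgeR adjusted p 0.0178, and with rows without a mismatch only they were 1.88 and 0.0815. The GTTCNANNC pattern, searched on the listed strand of the hairpins, was in 9 members (2.44%), 3 mostly mismatched (2.10%) and 2 annotated hairpins (0.758%). Of these members only chr2_21956 and chr17_16782 lay outside the family with the shared 15 bases. Without transfer RNA or repeat annotation, whether the pattern marks these members as like a transfer RNA was not tested.

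The GT-rich hairpins did not rise. In chr15_14759, 83 nt long with the shared sequence at bases 1 to 22, the levels were 1122, 667 and 1082 CPM in high glucose and 1677, 2258 and 1714 in low glucose. Every low glucose library was above every high one, and the log2 fold change was -0.98 ± 0.25 (SE; adjusted p = 0.0101 in edgeR). In chr4_28700, 73 nt long with the shared sequence at bases 52 to 73, the levels were 653, 418 and 594 against 1370, 1837 and 1290 CPM, at a log2 fold change of -1.44 ± 0.23 (SE; adjusted p = 0.00155 in edgeR). The shared sequence makes up 52.4% and 84.5% of these hairpins, with equal counts in both because its reads were divided between them, and 1 and the same RNA thus appears as a 5p and as a 3p product. From the sequences listed under chr15_14759 alone the log2 fold change was 0.37 (edgeR adjusted p = 0.387), so no fall of this hairpin was seen without the shared sequence. Joined, the pair fell by 0.91 on the log2 scale (SE 0.21; edgeR adjusted p = 0.00345). The third hairpin, chr17_16957, shared no sequence and had 1098, 900 and 844 CPM against 1033, 1271 and 1056. Its groups overlapped and it was not called (log2 fold change -0.24 ± 0.18, SE; edgeR adjusted p = 0.263). With unshared sequences only, its counts stayed the same and its log2 fold change was 0.0052. The refit thus moved values by itself, and the 0.37 of chr15_14759 includes such a shift.

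The hairpin opposite miR-182, chr4_26649, had 534, 277 and 341 CPM in high glucose and 59.9, 27.6 and 90.2 in low glucose. The groups did not overlap, with an estimated log2 fold change of 2.73 ± 0.44 (SE; adjusted p = 0.00149 in edgeR). It is 61 nt long and shares at least 28 bases with the reverse of the RefSeq Mir182 hairpin. The microRNA itself, known from sensory cells, was at 46.8, 1.48 and 13.7 CPM in high and at 0, 0 and 18 in low glucose, below the opposite strand in every library. A second abundant hairpin with a uniform 3′ end, chr2_21670, had 415, 501 and 207 CPM against 22.5, 27.6 and 36.1, and its lowest high glucose library was above all low ones (log2 fold change 3.71 ± 0.48, SE; edgeR adjusted p = 0.000597). Its low glucose counts were 3, 4 and 4. Its main sequence of 20 nt held 20.5% of its counts.

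**Figure D5:**
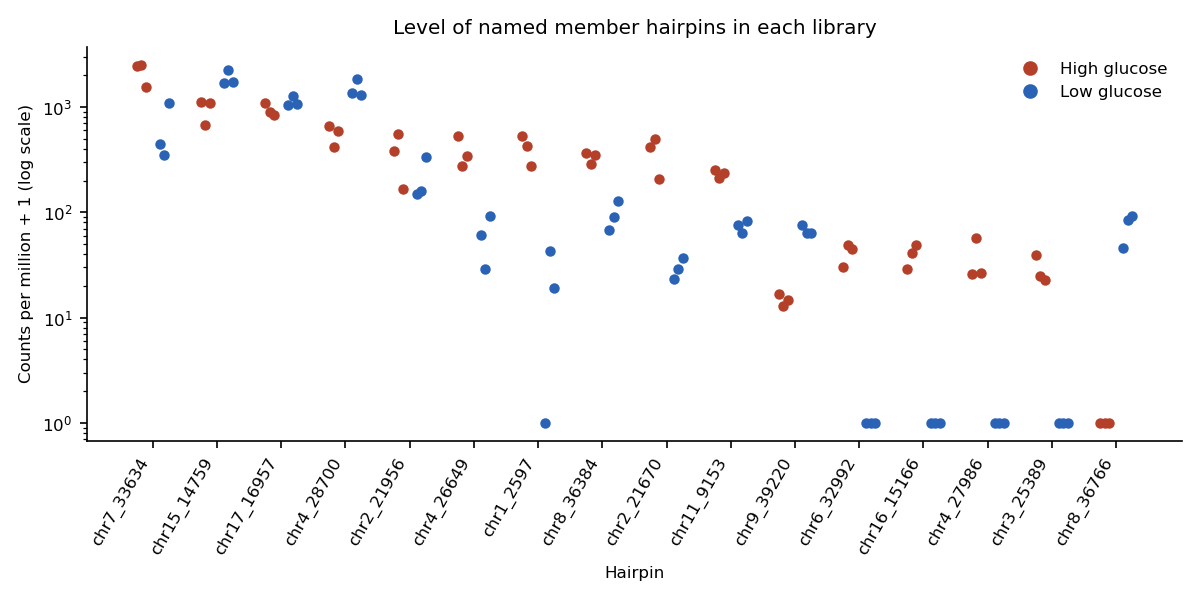
Level of 16 named member hairpins in each library, as CPM plus 1 on a log scale, where a value of 1 means that the hairpin was not listed. Red points are the 3 high glucose and blue points the 3 low glucose libraries. The 2 hairpins chr15_14759 and chr4_28700 are higher in all low glucose libraries, chr17_16957 and chr2_21956 overlap, and 4 hairpins are listed in high and 1 in low glucose only.

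The 4 tested members with no listed read in any low glucose library were called higher with edgeR adjusted p-values of 0.00587 to 0.0138. They had 28, 65 and 54 counts in high glucose in chr6_32992, 27, 54 and 59 in chr16_15166, 24, 76 and 32 in chr4_27986, and 37, 32 and 27 in chr3_25389. A fold is not given, since a sequence with 1 read is not listed and the counts of a hairpin are spread over 7 to 9 sequences. At their high glucose level a low glucose library would have held 3.10 to 5.82 reads of each, so an equal level could go unlisted at that depth. The fit took unlisted reads as 0, and these members passed the filter through the high glucose group alone. Their p-values are therefore not support for a rise. The hairpin chr3_25389 has the main sequence found in the most gene start windows of these, 90. The other way round, chr8_36766 had no listed read in any high glucose library and 6, 12 and 10 counts in low glucose (44.9, 82.9 and 90.2 CPM; edgeR adjusted p = 0.000884), all in 1 sequence. It is outside the rule for named hairpins and is given here because it is the fourth of the 4 lower members. Here the deeper libraries are the ones at 0, and chr8_36766 passed the filter through the low glucose group alone.

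The remaining lower member, chr9_39220, had 15.6, 11.8 and 13.7 CPM in high and 74.9, 62.2 and 63.2 in low glucose, without overlap (log2 fold change -2.28 ± 0.42, SE; edgeR adjusted p = 0.00253). Like chr8_36766, it passed the filter through the low glucose group alone, so its p-value is not support for a fall. In chr9_39220, 63.5% of the counts were shared with chr7_34122, a mostly mismatched hairpin with 66246 counts against its own 74. Joined with that hairpin it formed a unit at a log2 fold change of -2.75 ± 0.23 (SE; adjusted p = 2.58e-06 in edgeR), which is almost wholly the other hairpin's.

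The copies of miR-199a-3p, miR-365-3p and miR-378a-3p were not called on their own. For chr3_23825, with the sequence of miR-199a-3p, the counts were 29, 38 and 33 in high and 8, 5 and 7 in low glucose, at a log2 fold change of -0.88 ± 0.42 (SE; adjusted p = 0.0977 in edgeR) and groups that did not overlap. For chr14_12992, with that of miR-365-3p, they were 39, 34 and 36 against 3, 6 and 4 and for chr10_5922, with that of miR-378a-3p, 22, 40 and 23 against 8, 8 and 0, with overlapping groups in both. These counts are the part of the microRNA's reads that was given to the predicted copy. Hairpin chr15_14496, which shares bases with miR-16-5p, was not tested. It had 38, 75 and 23 counts in high and 0, 2 and 0 in low glucose, a ratio per library depth of 7.44 with an exact 95% binomial interval of 2.02 to 62, which covers counting error only. The interval does not cover reads lost because a sequence with 1 read is not listed. This hairpin was also picked after its values were seen, so the ratio is not support for a rise. In chr19_18889, whose main sequence lies within Mir3074 and whose 58 bases are all opposite Mir24-2, 27, 22 and 21 counts were listed in high glucose and 0 in each low glucose library, and it was not tested.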

How the data were processed

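Small RNA of RSC96 cells was sequenced in 3 high and 3 low glucose libraries on an Illumina instrument. Per the file headers, the authors deposited unnormalised counts, 1 row for each read sequence under each hairpin, with its alignment. According to the submitters' processing notes, Novoalign 3.02.12 and cutadapt 1.9.3 were used, for unstated steps. The genome build and hairpin database were not given in the sources used here. Places are thus positions in the hairpin. A check of the deposited rows found lengths of 16 to 40 nt and at least 2 reads per sequence, and the reads of a sequence under several hairpins are divided among them, so shared sequences need more reads to be listed.

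From these, counts were summed per hairpin sequence. Libraries held 114615 to 1354456 counts, which limits low glucose most. Tests used R 4.3.3 with edgeR 4.0.16 (quasi-likelihood, TMM, filterByExpr with a minimum count of 10, robust dispersions, adjusted p 0.05). A standard error was taken as the log2 fold change over the root of its F statistic. Python 3.11.15, pandas 2.3.3, NumPy 2.4.6, SciPy 1.17.1, matplotlib 3.10.9 and RNAfold 2.7.2 were used for the rest. On counts simulated for 776 hairpins of this comparison, with 272 tested, the fit recovered 31 of 31 changed 4-fold and 15 of 42 changed 2-fold, and 1 of 47 calls was false. The simulated counts were independent between hairpins, with 1 dispersion for all. They left out the loss of sequences with 1 read and the division of shared reads, so this rate of false calls does not carry over to the members.

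Members, lists and tests were chosen with earlier results of these data known. Named hairpins are the 10 with the highest mean CPM, up to 6 largest rises and falls among called members with separate groups and a mean of at least 10 counts in a group, the 3 nearest the threshold on either side with at least 50 counts, and the 5 most abundant of those that match a rat miRNA or its seed. Others were picked once their values were known. The alternatives tried were other scalings (upper quartile, DESeq2 1.42.0 size factors), the DESeq2 Wald test, other filters, a replicate block, thinned counts, unshared or exact sequences only, joined hairpins, single arms, other membership rules and fits without each library. Same-numbered libraries did not deviate together (correlations of 0.003, -0.003 and -0.023 over 272 hairpins). No pairing by number was thus seen, but 3 libraries per group cannot show that there was none. Replicates differed by more than counting noise (chi-square per degree of freedom 4.13 to 112).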

Additional observations from a re-analysis of the deposited data

How the results depend on the processing

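Of the 27 members called higher and 4 called lower, 11 and 2 of 17 tested were called at equal depth (1 draw; 40.2% and 39.6% of all tested hairpins), 12 and 1 of 25 with unshared sequences (36.9% and 22.3%), and 18 and 4 of 48 with rows without a mismatch (36% and 25.8%). At 80% exact counts 7 and 2 of 18 were called in the main fit (36.4% and 26.1%). When hairpins were joined, 14 of 31 units were higher (38.6%). With 1 library left out, 16 to 27 were higher and 3 to 4 lower, against 28.9% to 42.2% and 13.9% to 32.8% of all tested hairpins. Leaving out high glucose library 1, 2 or 3, 17 of 33, 16 of 32 or 24 of 34 tested members were higher. The shares of all tested hairpins were 38.3%, 38.3% and 42.2%, and the cause of the spread was not tested. With the replicate number as a block, 21 were higher and 4 lower, against 30.9% and 21.3% of all tested hairpins. Of the higher, 12 were in the family with the shared 15 bases, and chr3_25389 was not called (edgeR adjusted p = 0.0523). Other scalings, filters and the DESeq2 Wald test gave 22 to 31 higher and 4 lower, against 11.9% to 41.2% and 7.47% to 26.5% of all tested hairpins. The lowest shares were those of the DESeq2 Wald test and of the fit without a filter, which tested all 369 members and all 776 hairpins. Upper quartile scaling moved the median of all tested hairpins from 0.39 to 0.56. Without the 3 GT-rich hairpins, an alternative chosen after the data were seen, the difference in percentage points between high and low glucose was 0.645 in the members' share of counts, -12.2 in shared sequences and, reversed, 9.24 in sequences of 20 to 24 nt. At 80% exact counts the differences in the members' share and in shared sequences were 0.127 and -33.6, against 0.435 and -21.9, and the cause was not tested. Under the other alternatives run these 3 differences moved by less than the larger SD of the replicates. With unshared sequences only, the log2 fold changes of chr15_14759 (0.37), chr17_16957 (0.0052) and chr11_9153 (-1.12) changed sign without being called. The counts of chr17_16957, which shared no sequence, were the same in that fit, so only the refit moved it. Of the refits of 18 named members, 232 kept direction and side of the threshold, 3 were newly called (chr2_21956 in 2 and chr1_1157 in 1) and 1 was lost.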
